A study of Homo sapiens with 90 samples.

Results

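The genes described here are 38 members of the ATF4 stress response and of amino acid supply, followed through 6 human cancer cell lines and 5 treatment arms. They were chosen by symbol, with no measured value in the rule, but with earlier results of these data known. Each of the 38 symbols matched 1 of the 53893 gene IDs in the deposited table. By role they are 11 stress regulators (ATF4, ATF5, DDIT3, DDIT4, CEBPB, TRIB3, CHAC1, SESN2, NUPR1, STC2 and VLDLR), 10 enzymes of amino acid and folate metabolism (ASNS, PHGDH, PSAT1, PSPH, SHMT2, MTHFD2, ALDH1L2, CBS, CTH and PCK2), 7 transporter genes (SLC7A11, SLC7A5, SLC3A2, SLC1A4, SLC1A5, SLC7A1 and SLC6A9) and 10 tRNA synthetases (AARS1, GARS1, SARS1, WARS1, MARS1, NARS1, EPRS1, IARS1, YARS1 and CARS1).

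In the integrated stress response, kinases that sense amino acid shortage or other stress phosphorylate the initiation factor eIF2alpha, which lowers general protein synthesis while the mRNA of the transcription factor ATF4 is translated more. ATF4 then raises the genes that make, import and load amino acids, and later those that end the response or favour cell death. ATF4 is controlled to a large extent at translation, so its mRNA need not follow the activity of the protein. In growing tumour cells mTORC1 signalling also feeds into ATF4, and serine and one-carbon synthesis supplies nucleotide building blocks.

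RNA was sequenced from established lines, each given a kinase inhibitor, the CDK7 inhibitor THZ1, both, or vehicle. In A375 melanoma cells the arms were THZ1 at 50 nM with the BRAF inhibitor vemurafenib at 1 uM, THZ1 alone, vemurafenib for 7 days, vemurafenib for 48 h, and DMSO. For A549, a lung line, THZ1 was used at 150 nM and the drug was GSK1120212 at 200 nM, a MEK inhibitor called trametinib below. For H3122, also from lung, THZ1 was at 50 nM and the drug was crizotinib at 250 nM, given against ALK. For N87, from stomach, THZ1 was at 25 nM and the drug was lapatinib at 100 nM, given against EGFR and ERBB2. For PC9, from lung, THZ1 was at 100 nM and the drug was erlotinib at 1 uM, given against EGFR. For RT112, from bladder, THZ1 was at 100 nM and the drug was BGJ398 at 1 uM, given against FGFR. Every line had the same 5 arms of 3 libraries, DMSO was at 0.1%, and all arms but the 7-day one lasted 48 h. No 7-day vehicle arm is among them, so 7 days were compared with 48 h of the same drug, and time in culture cannot be told apart from drug. A375 was grown in DMEM and the other lines in RPMI, both with serum and glutamine. Medium composition, which bears on amino acid genes, therefore differed between A375 and the rest, and its part in the results was not tested.

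The 90 libraries held between 5.64 M and 14.36 M expected counts, and each of the 90 was most similar to a library of its own line and arm. Separate cultures are not mentioned for the 3 libraries of a group, and a p-value from 1 line then reflects spread between libraries that may be technical. The RT112 libraries numbered 1 in DMSO and under BGJ398 at both times, and the H3122 7-day library numbered 1, had the lowest mean correlation of their groups. Any group has a lowest library, and the lowest of the 90 was library 1 of A375 under vemurafenib for 48 h (0.9922). Leaving out the RT112 libraries numbered 1 was not planned beforehand. Without RT112 libraries numbered 1 the estimates of RT112 members moved by at most 0.41 on the log2 scale (CHAC1, interaction), and without the H3122 library those for 7 days by at most 0.29 (CHAC1), with 0 calls lost in either line and at most 3 gained in a comparison. A375 had the melanocyte factor SOX10 at 953 CPM (expected counts per M counts of the library) but MLANA at 0.737 CPM. Of the lung lines, H3122 alone had more than 1 CPM of the lung factor NKX2-1, at 227 CPM, while N87 had the gastric markers at or near 0 apart from 4.47 CPM of MUC5AC. In DMSO, RT112 had the urothelial genes FGFR3, UPK1B and GATA3 at 973, 509 and 286 CPM. It had UPK2, UPK1A and UPK3A at 28.6, 4.93 and 0.0249 CPM. UPK1B was also at 235 CPM in A549, and UPK2 at 38.6 CPM in PC9. The 4 blood markers summed to at most 3.37 CPM in any library. Sums of lineage markers also moved with the drugs. The 5 lung markers summed to between 691 and 763 CPM under crizotinib at 48 h, against between 225 and 233 CPM in DMSO in H3122, and the 6 gastric and gut markers to between 15.2 and 25.3 CPM, against between 185 and 209 CPM. In A549 the 4 fibroblast and endothelial markers summed to between 88.8 and 94.4 CPM under trametinib at 48 h and between 175 and 244 CPM at 7 days, against between 15.6 and 18.6 CPM in DMSO. In A375 the 6 melanocyte markers summed to between 1643 and 1736 CPM under vemurafenib at 48 h, against between 952 and 1026 CPM in DMSO. In DMSO these sums were mostly NKX2-1 in H3122 (227 CPM), COL1A1 in A549 (16.5 CPM) and SOX10 in A375 (953 CPM). The gastric and gut sum of H3122 was mostly TFF1 and MUC5AC (92.6 and 102 CPM). The sums do not show which markers moved. The part of these shifts in the results was not tested. Levels are CPM of the whole library and are not per length, so they are compared between samples and not between genes. Every change is relative to the other RNA of the same libraries, and a change in total RNA per cell would not be seen.

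ATF4 binds DNA with C/EBP partners at an element whose core reads TGATGNAA. This core was searched on both strands (TTNCATCA on the other strand) in RefSeq promoters of build GRCh38.p14, which run over 250 bases before and 50 after each transcript start. Of the 32 members with a promoter entry 12 held it (37.5%), against 1217 of 27305 genes with one (4.46%). It was found for 6 of 9 synthetases, 4 of 6 transporters, 1 of 7 enzymes and 1 of 10 regulators. The 250 bases before the start are shown for ASNS, asparagine synthetase, at chr7:97872409-97872658 on the minus strand, and for CHAC1, a glutathione-degrading enzyme, at chr15:40953221-40953470 on the plus strand. These are the enzyme and the regulator with the core, which is in capitals and starts at base -68 in ASNS and -209 in CHAC1.
ASNS: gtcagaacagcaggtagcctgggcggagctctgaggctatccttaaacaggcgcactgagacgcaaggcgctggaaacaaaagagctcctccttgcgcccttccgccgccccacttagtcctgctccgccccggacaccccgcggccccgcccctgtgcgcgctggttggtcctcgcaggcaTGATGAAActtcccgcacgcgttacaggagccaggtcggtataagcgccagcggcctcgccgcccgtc
CHAC1: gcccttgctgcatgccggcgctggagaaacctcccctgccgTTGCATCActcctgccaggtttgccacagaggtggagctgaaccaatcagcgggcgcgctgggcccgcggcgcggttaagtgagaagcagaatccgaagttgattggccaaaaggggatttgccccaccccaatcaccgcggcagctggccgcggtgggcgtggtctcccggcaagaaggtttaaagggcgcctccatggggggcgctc
The synthetase matches are shown with 11 bases on each side because 6 genes of the same task carry the core. NARS1 holds it on the strand read here and the others on the opposite one, and GARS1 differs from the rest at the N of the core.
AARS1: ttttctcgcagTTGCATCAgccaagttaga
GARS1: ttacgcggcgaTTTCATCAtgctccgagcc
MARS1: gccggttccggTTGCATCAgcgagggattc
NARS1: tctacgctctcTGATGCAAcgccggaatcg
IARS1: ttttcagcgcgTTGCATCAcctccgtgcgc
CARS1: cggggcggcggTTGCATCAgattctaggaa
The neutral amino acid transporters SLC1A4 and SLC1A5 are shown for the same reason.
SLC1A4: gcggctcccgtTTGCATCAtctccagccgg
SLC1A5: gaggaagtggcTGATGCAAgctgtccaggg
The windows lie at chr16:70289675-70289704 (AARS1), chr7:30594834-30594863 (GARS1), chr12:57488053-57488082 (MARS1), chr18:57621804-57621833 (NARS1), chr9:92293692-92293721 (IARS1), chr11:3057407-3057436 (CARS1), chr2:64989381-64989410 (SLC1A4) and chr19:46784893-46784922 (SLC1A5), with GARS1, MARS1 and SLC1A4 on the plus strand and the others on the minus strand. A match describes these letters only. NUPR1, PSPH, SHMT2, ALDH1L2, SLC7A11 and YARS1 had no promoter entry.

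In vehicle the members were not at one level in all lines. A549 had the highest mean of the 6 lines for 26 of 38 members. It had ASNS at 339 ± 12.5 CPM (SD, n = 3), against 48.6 ± 3.53 CPM in PC9, the lowest line. It likewise had TRIB3, a pseudokinase that restrains ATF4 output, at 610.3 ± 50.6 CPM, against 24.5 ± 1.02 CPM in N87. The factor itself varied less, since ATF4 had 560.4 ± 39.9 CPM in RT112, the highest line, and 328 ± 14.2 CPM in A375, the lowest. Some members were close to absent in single lines. STC2, a secreted glycoprotein, was at 208 ± 16.7 CPM in A549 and 0.0623 ± 0.054 CPM in N87, and the mitochondrial folate enzyme ALDH1L2 at 120.3 ± 6.44 CPM in A549 and 0.0955 ± 0.165 CPM in RT112.

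The first comparison asked what 48 h of the targeted drug did to these genes. Amino acid synthesis, import and tRNA charging genes fell together in lines from different tissues and with different drug targets, while the stress regulators DDIT3 and NUPR1 rose in 4 lines each. In asparagine synthetase, ASNS, the libraries read 21.1, 21.6 and 23.7 CPM under vemurafenib, against 73.9, 66 and 73.5 CPM in DMSO in A375. They read 20.7, 19 and 20.1 CPM under trametinib, against 353, 328 and 336 CPM in DMSO in A549, and 11.8, 11.4 and 10.7 CPM under erlotinib, against 46, 52.6 and 47.1 CPM in DMSO in PC9. The groups did not overlap in any of these lines, and the A549 drug libraries were the farthest below their vehicle. In H3122, ASNS had 51.6, 48.6 and 51.1 CPM under crizotinib, against 67.3, 61.1 and 65.7 CPM in DMSO. In N87 it had 41.9, 33.7 and 37.6 CPM under lapatinib, against 63.6, 60.9 and 64.6 CPM in DMSO, and in RT112 18.5, 15.8 and 20.2 CPM under BGJ398, against 54.9, 92.8 and 100.3 CPM in DMSO. These groups did not overlap either, with the smallest gap in H3122, and the RT112 effect was -2.34, or -2.59 without the libraries numbered 1. Over the 6 lines ASNS fell by 2.03 ± 0.44 on the log2 scale (adjusted p = 0.00127, edgeR quasi-likelihood, where ± is the SE of the fit). In bulk RNA, fewer expressing cells and less RNA per cell cannot be told apart.

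Across lines 34 of the 38 members could be tested, NUPR1, STC2, ALDH1L2 and CBS being too low in at least 1 line. Of the 34, 20 fell and 0 rose, against 18.5% of all 11875 genes tested that fell and 18.6% that rose. The median over the 34 was -0.82, beside 0.05 over all genes tested. DESeq2 also called 20 lower, and 21 members had an unadjusted p under 0.05. By role, 6 of 8 enzymes, 8 of 10 synthetases, 4 of 7 transporters and 2 of 9 regulators fell.

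PSAT1, MTHFD2 and PHGDH, enzymes of serine and one-carbon metabolism, fell farthest of the 34. PSAT1, which makes phosphoserine, fell by 2.49 ± 0.51 (adjusted p = 0.000931). The mitochondrial folate dehydrogenase MTHFD2 fell by 2.15 ± 0.35 (adjusted p = 0.000177), and PHGDH, the entry enzyme of serine synthesis, by 2.13 ± 0.47 (adjusted p = 0.00146). SHMT2, which splits serine in mitochondria, had -1.27 and mitochondrial PCK2 had -0.81, both past the threshold. PSPH, the last step to serine, had -0.44 and CTH, which makes cysteine, had -0.23, and neither passed the test (adjusted p = 0.234 and 0.652). The enzymes at the head of serine synthesis gave larger estimates than the one at its end, a difference between genes that was not tested.

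Among transporters, the cystine carrier SLC7A11 fell by 1.49 ± 0.41, the cationic amino acid carrier SLC7A1 by 1.27 ± 0.30, and the neutral carriers SLC1A4 and SLC1A5 by 1.22 ± 0.35 and 1.18 ± 0.29, with adjusted p between 0.00276 and 0.00995. The leucine carrier SLC7A5 (-0.92) and its partner chain SLC3A2 (-0.58) did not pass (adjusted p = 0.161 and 0.142). SLC7A5 has pseudogene copies with which its reads may be shared. The glycine carrier SLC6A9 had 0.05 with line effects of both signs. Of the synthetases, IARS1 (-1.29), GARS1 (-1.29), YARS1 (-1.17), MARS1 (-1.01), AARS1 (-0.84), EPRS1 (-0.58), CARS1 (-0.58) and NARS1 (-0.46) fell, with adjusted p between 0.00022 and 0.0413. SARS1 and WARS1 did not pass, with -0.46 and -0.56.

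The regulators did not follow one course. ATF4 mRNA had -0.44 ± 0.21 (adjusted p = 0.103), and DDIT3, which encodes the pro-apoptotic factor CHOP, had 0.59 ± 0.35 (adjusted p = 0.187). TRIB3 fell by 1.64 ± 0.55 (adjusted p = 0.0233) and CHAC1 by 1.71 ± 0.65 (adjusted p = 0.0418). The other regulators tested, ATF5, DDIT4, CEBPB, SESN2 and VLDLR, lay between -0.8 and 0.12 and were not called. Of the 12 members with the TGATGNAA core, 11 fell, with a median of -1.2 over the 12. Of the 18 tested members with a promoter entry and no core, 6 fell, with a median of -0.51. The core was in 6 of 9 synthetases and 4 of 6 transporters but in 1 of 10 regulators, a role in which few members fell. Core and role therefore cannot be told apart here. SHMT2, SLC7A11 and YARS1, which fell, had no promoter entry and are in neither group. This contrast is a description of genes chosen with results known, and no test was made of it.

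Some of these calls rested on single lines or settings. TRIB3 was no longer called without PC9 (-1.63) or RT112 (-1.42), and SLC1A4 without A549 (-0.94). CHAC1 was lost without A549 (-1.35), H3122 (-1.88), PC9 (-1.89) or RT112 (-1.11), and without the filter on low counts (-1.8). PCK2 was lost without A375 (-0.71), A549 (-0.51), PC9 (-0.85) or RT112 (-0.85), with RLE size factors (-0.79, adjusted p = 0.0503) and without the filter (-0.89). CARS1 was lost without A375 (-0.6), A549 (-0.26) or RT112 (-0.54). With only the arms compared in the fit, CHAC1, PCK2, CARS1, EPRS1 and NARS1 were not called, with -1.46, -0.72, -0.53, -0.55 and -0.45.

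**Figure D1:**
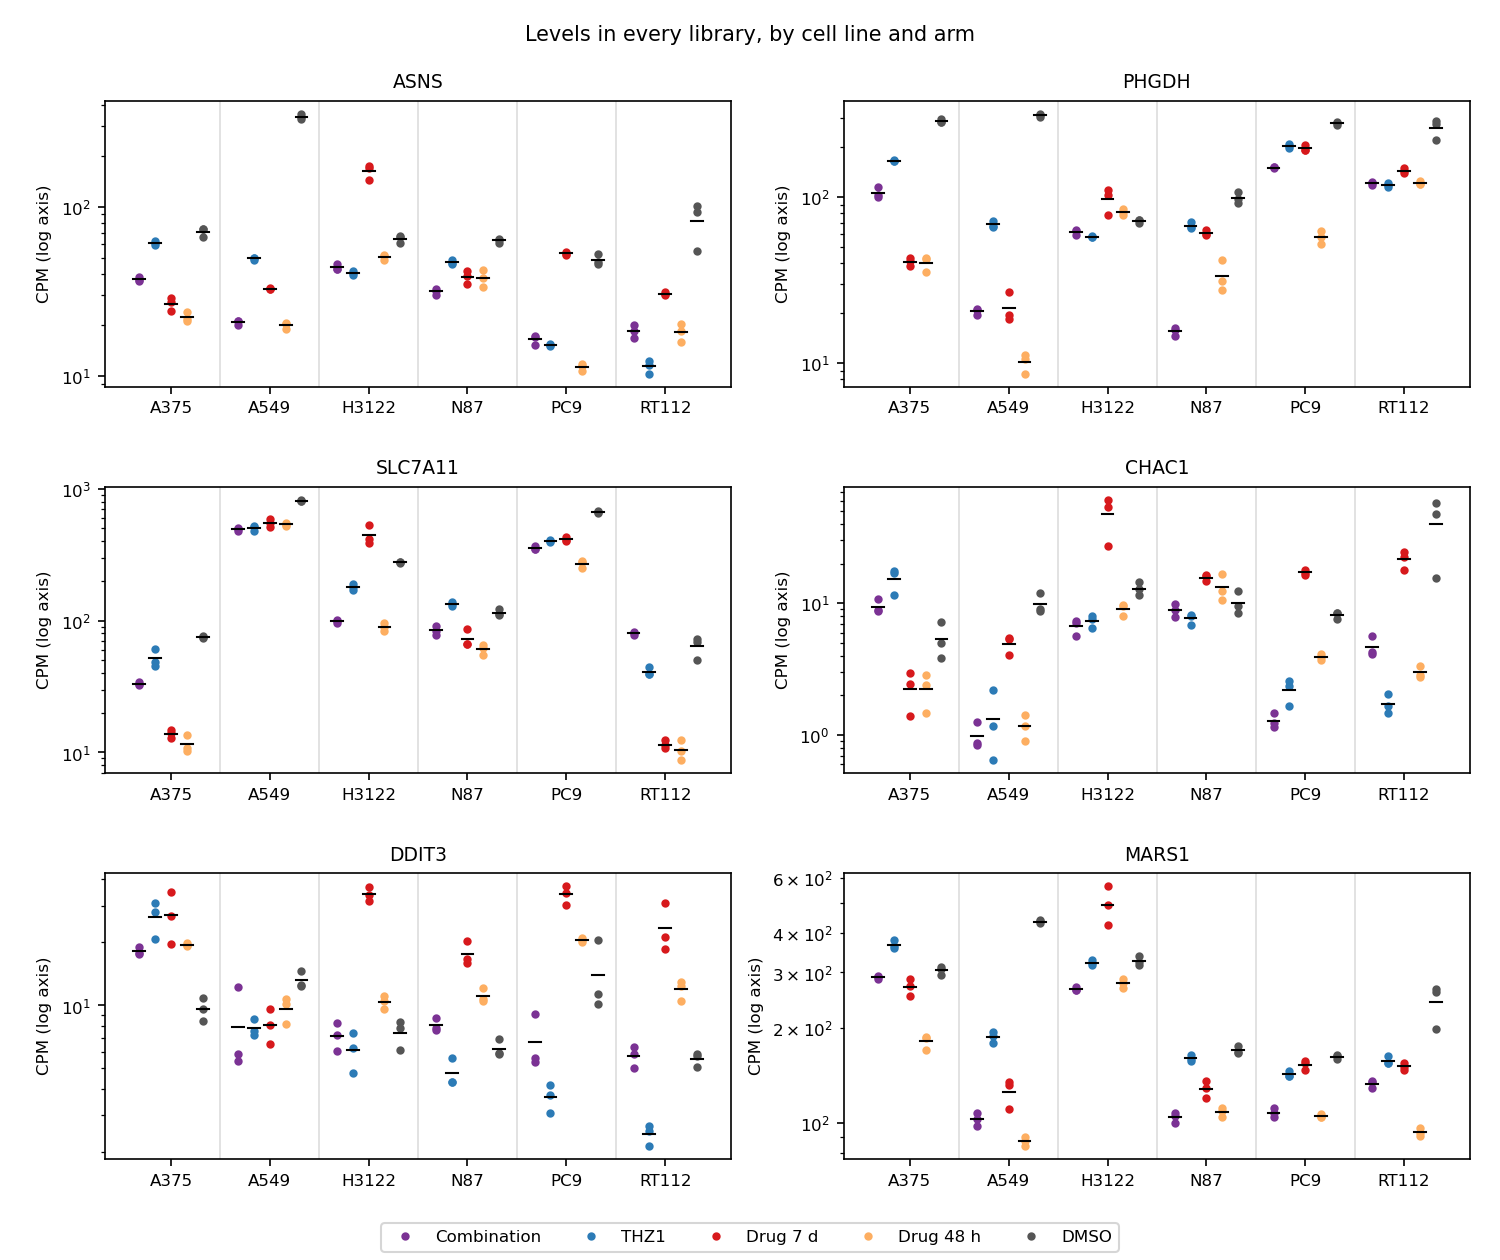
CPM on a log axis in every library for ASNS, PHGDH, SLC7A11, CHAC1, DDIT3 and MARS1, with points for the 3 libraries of an arm and a short line for their mean. Drug libraries at 48 h lie below DMSO for ASNS in all 6 lines, while DDIT3 lies above DMSO in A375, H3122, N87 and RT112.

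Within lines the counts show where the fall was widest. In RT112, 33 of 36 members fell under BGJ398, against 35.1% of all genes tested there. In A549, 32 of 38 fell under trametinib (37.4% of all genes), and in A375, 30 of 38 under vemurafenib (32.9%). In PC9, 27 of 38 fell under erlotinib (32.8%), in N87, 26 of 35 under lapatinib (35.4%), and in H3122, 23 of 36 under crizotinib (24.1%). Members that rose numbered 9 in PC9 (35.2% of all genes rose), 5 in A375 (34.3%), 5 in A549 (36.8%), 5 in N87 (35.5%), 3 in RT112 (34.2%) and 2 in H3122 (22%). Medians over the members tested were -1.91 in A549, -1.55 in RT112, -0.82 in A375, -0.66 in N87, -0.57 in PC9 and -0.34 in H3122, where the median over all genes lay between 0.00 and 0.04. The members called lower in all 6 lines numbered 15: ASNS, PSAT1, SHMT2, MTHFD2, TRIB3, SLC7A11, SLC3A2, SLC1A5, SLC7A1, AARS1, GARS1, MARS1, NARS1, IARS1 and YARS1. The share of all genes called alike in all 6 lines was not counted, here or for the comparisons below. CEBPB, a partner of ATF4 on DNA, was below 0 in all 6 lines and called in 4.

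The serine enzymes show the span between lines. PSAT1 had 12.1, 9.33 and 10.7 CPM under trametinib, against 512, 481 and 508 CPM in DMSO in A549, and 85.3, 82.7 and 82.7 CPM under crizotinib, against 114, 114 and 112 CPM in DMSO in H3122. Both pairs of groups are apart, but the A549 effect was -5.52 ± 0.07 and the H3122 effect -0.54 ± 0.07 (adjusted p = 2.64e-22 and 1.26e-05). PHGDH had 10.5, 8.62 and 11.2 CPM under trametinib, against 317, 304 and 311 CPM in DMSO in A549. It had 78, 81.4 and 84.9 CPM under crizotinib, against 72.7, 69.7 and 72.6 CPM in DMSO in H3122, the one line where it was not lower. PHGDH fell by 4.92 in A549, 2.82 in A375, 2.14 in PC9, 1.67 in N87 and 1.26 in RT112, and had 0.08 (adjusted p = 0.517) in H3122. CBS, the first enzyme of cysteine synthesis from homocysteine, fell by 4.21 ± 0.11 in A549 and had -0.12 in H3122.

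MTHFD2 fell in every line, with 36.9, 37.4 and 37.9 CPM under trametinib, against 534, 482 and 521 CPM in DMSO in A549, and 37.5, 32.1 and 31.4 CPM under BGJ398, against 199, 234 and 240.2 CPM in DMSO in RT112. Its effects lay between -3.76 in A549 and -0.83 in H3122. PSPH did not follow the other serine enzymes in A549, where it rose by 0.34 ± 0.05 while PSAT1 and PHGDH fell, and it fell in the other 5 lines by between 0.29 in A375 and 1.06 in RT112. CTH rose by 1.26 ± 0.05 in PC9 and fell in A375, A549 and RT112.

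The synthetases, which load amino acids onto tRNAs, moved by smaller amounts and almost as a block. MARS1 had 90.4, 87.8 and 84.3 CPM under trametinib, against 436, 429.8 and 439 CPM in DMSO in A549, and 286, 267 and 279 CPM under crizotinib, against 318, 337 and 324 CPM in DMSO in H3122. The A549 and H3122 groups were each apart, with the vehicle libraries the higher. MARS1 fell by 2.29 ± 0.06 in A549, 1.53 in RT112, 0.75 in A375, 0.75 in N87, 0.49 in PC9 and 0.33 ± 0.07 in H3122. All 10 synthetases fell in A549 and in RT112 (37.4% and 35.1% of all genes). In H3122 and in N87 9 fell (24.1% and 35.4%), and in A375 and in PC9 8 fell (32.9% and 32.8%). WARS1, which is also known as an interferon-induced gene, was the exception in H3122, with 251, 266 and 268 CPM under crizotinib, against 161, 150.2 and 166 CPM in DMSO, a rise of 0.62 ± 0.13.

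Transporters were ordered differently. SLC7A11 had 10.2, 10.8 and 13.5 CPM under vemurafenib, against 73.7, 76.5 and 75.7 CPM in DMSO in A375, and 10.2, 8.76 and 12.5 CPM under BGJ398, against 50.3, 68.6 and 72.1 CPM in DMSO in RT112. In A549, where ASNS and PSAT1 had their largest falls, it had 533, 525 and 553 CPM under trametinib, against 823, 806 and 815 CPM in DMSO. Its effects were -2.67 ± 0.10 in A375, -2.76 ± 0.13 in RT112 and -0.58 ± 0.04 in A549, all called. SLC6A9 went against the list in RT112, with 9.07, 7.58 and 9.95 CPM under BGJ398, against 1.93, 0.97 and 1.39 CPM in DMSO, and in PC9, with 129, 124 and 125 CPM under erlotinib, against 59.1, 54.4 and 50.1 CPM in DMSO. It rose by 2.45 ± 0.19 in RT112, by 1.34 ± 0.06 in PC9 and by 0.53 ± 0.07 in N87, and fell by 1.88 in A375 and 1.93 in A549.

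The regulators DDIT3 and NUPR1 rose in several lines in which the supply genes fell, but other regulators went down. TRIB3 had effects between -2.75 in RT112 and -1.02 in H3122. STC2, in the lines where it was tested, lay between -3.97 in A549 and -1.13 in H3122. DDIT3 had 19.8, 19.2 and 19.4 CPM under vemurafenib, against 9.67, 8.47 and 10.8 CPM in DMSO in A375, and 10.5, 12.4 and 13 CPM under BGJ398, against 5.85, 5.1 and 5.73 CPM in DMSO in RT112. In PC9 it had 21.1, 20.1 and 20.5 CPM under erlotinib, against 10.2, 11.3 and 20.6 CPM in DMSO, and there 1 vehicle library lay among the drug libraries. DDIT3 rose by 0.97 ± 0.19 in A375, 0.94 ± 0.18 in RT112, 0.74 ± 0.14 in N87 and 0.69 ± 0.18 in PC9, and had 0.38 and -0.44 in H3122 and A549, which were not called. NUPR1, a stress-induced chromatin protein, rose in each of the 4 lines in which it could be tested, by 1.6 in N87, 1.47 in PC9, 1.33 in A375 and 0.81 in A549. The N87 call was lost without DMSO library 1 or 2 (1.31 and 1.5) or lapatinib library 1 (1.45), and it rests on low levels, 1.37, 1.01 and 1.09 under lapatinib, against 0.192, 0.292 and 0.546 in DMSO. CHAC1 in RT112 had 2.78, 2.88 and 3.32 CPM under BGJ398, against 15.5, 47.2 and 57.6 CPM in DMSO, whose lowest value is the library numbered 1. It fell by 3.89 ± 0.38, and its estimate without the libraries numbered 1 was -4.24.

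The next question was what THZ1 alone did. The members leaned downward, but in the fit across lines 0 of 34 were called (edgeR), where 0.0842% of all 11875 genes were. An unadjusted p under 0.05 was reached by 15 members, and DESeq2 called 4, all lower. The estimate was below 0 for 33 of 34 members, with a median of -0.52 beside -0.01 over all genes, and this comparison shares its vehicle libraries with the first. THZ1 doses differed between lines, between 25 and 150 nM. ATF4 had -0.82 ± 0.21 (adjusted p = 0.0941), ASNS -1.67 ± 0.43 (adjusted p = 0.0941), CHAC1 -1.62 ± 0.67 (adjusted p = 0.328) and DDIT3 -0.47 ± 0.35 (adjusted p = 0.696). ATF5, an ATF4 relative under similar translational control, was the one member above 0, with 0.6 ± 0.18 (adjusted p = 0.143).

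Within lines ATF4 mRNA itself was lower under THZ1 everywhere. It had 242, 213 and 218 CPM under THZ1, against 518, 535 and 512 CPM in DMSO in A549, and 253, 258 and 256 CPM under THZ1, against 521, 559.9 and 600.4 CPM in DMSO in RT112. In A375 it had 286, 275 and 282 CPM under THZ1, against 325, 343 and 315 CPM in DMSO, and these groups are apart but closer than in A549 and RT112. ATF4 fell by 1.23 in A549, 1.21 in RT112, 0.9 in PC9, 0.54 in N87, 0.42 in H3122 and 0.34 in A375, with SEs of at most 0.07. Together with ASNS, PHGDH, PCK2 and AARS1 it was called lower in all 6 lines, and ATF5 was called higher in all 6.

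The number of members that fell under THZ1 was 35 of 38 in A549 (21.5% of all genes fell), 31 of 36 in RT112 (20.4%), 31 of 38 in PC9 (27.7%), 23 of 35 in N87 (16.3%), 17 of 36 in H3122 (12.3%) and 11 of 38 in A375 (28.9%). A375 stood apart, with 15 members higher (26.5% of all genes rose), against 1 or 2 in each other line, where between 10.8% and 26.1% of genes rose. In A375, CHAC1 had 17.5, 11.6 and 17 CPM under THZ1, against 5.01, 7.22 and 3.86 CPM in DMSO, and it rose by 1.47 ± 0.24. In RT112 it had 1.48, 2.04 and 1.67 CPM under THZ1, against 15.5, 47.2 and 57.6 CPM in DMSO, and fell by 4.6 ± 0.42, or by 4.98 without the libraries numbered 1. Other members that rose in A375 were SESN2, a leucine sensor of the mTORC1 pathway (1.54), DDIT3 (1.32), SLC7A5 (1.18) and SLC3A2 (1.04), while CBS (-1.65), PCK2 (-1.0) and PHGDH (-0.91) fell there. In PC9, NUPR1 had 1.45, 1.76 and 0.669 CPM under THZ1, against 10.2, 10.0 and 9.9 CPM in DMSO, and fell by 3.03 ± 0.22. In A549, CBS, SLC6A9 and ALDH1L2 fell the most, by 3.7, 3.68 and 3.21. In N87 the largest falls were those of PCK2 (-0.87), VLDLR, a lipoprotein receptor (-0.67), and DDIT4, an mTORC1 inhibitor (-0.67), and in H3122 those of CHAC1 (-0.82), SLC6A9 (-0.81) and CTH (-0.76). Some of these rested on single libraries or settings. CHAC1 in H3122 was lost without DMSO library 3 or 4 (-0.73 and -0.83) or THZ1 library 1 or 2 (-0.84 and -0.74). VLDLR in N87 was lost without DMSO library 4 (-0.57) or THZ1 library 2 or 4 (-0.63 and -0.69), with DESeq2 (-0.69) and without the filter on low counts (-0.67). DDIT4 in N87 was lost without DMSO library 1 (-0.57) or THZ1 library 3 (-0.59).

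By role, THZ1 lowered all 10 synthetases in A549 (21.5% of all genes fell) and 8 in RT112 and in PC9 (20.4% and 27.7%). It lowered 2 in H3122 (12.3%) and 2 in A375 (28.9%), where 4 rose (26.5% of all genes). AARS1, alanyl-tRNA synthetase, was the synthetase called lower in all 6 lines, by between 0.3 in H3122 and 1.48 in A549. MTHFD2 had 145, 141 and 139 CPM under THZ1, against 534, 482 and 521 CPM in DMSO in A549, and 167, 155 and 165 CPM under THZ1, against 154, 163 and 163 CPM in DMSO in A375. The groups are far apart in A549 and overlap in A375, with effects of -1.87 ± 0.04 and -0.1 ± 0.05. Among regulators 6 of 11 rose in A375 and 1 fell (26.5% and 28.9% of all genes). By contrast 10 of 11 fell in PC9 (27.7%) and 9 of 10 in RT112 (20.4%).

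**Figure D2:**
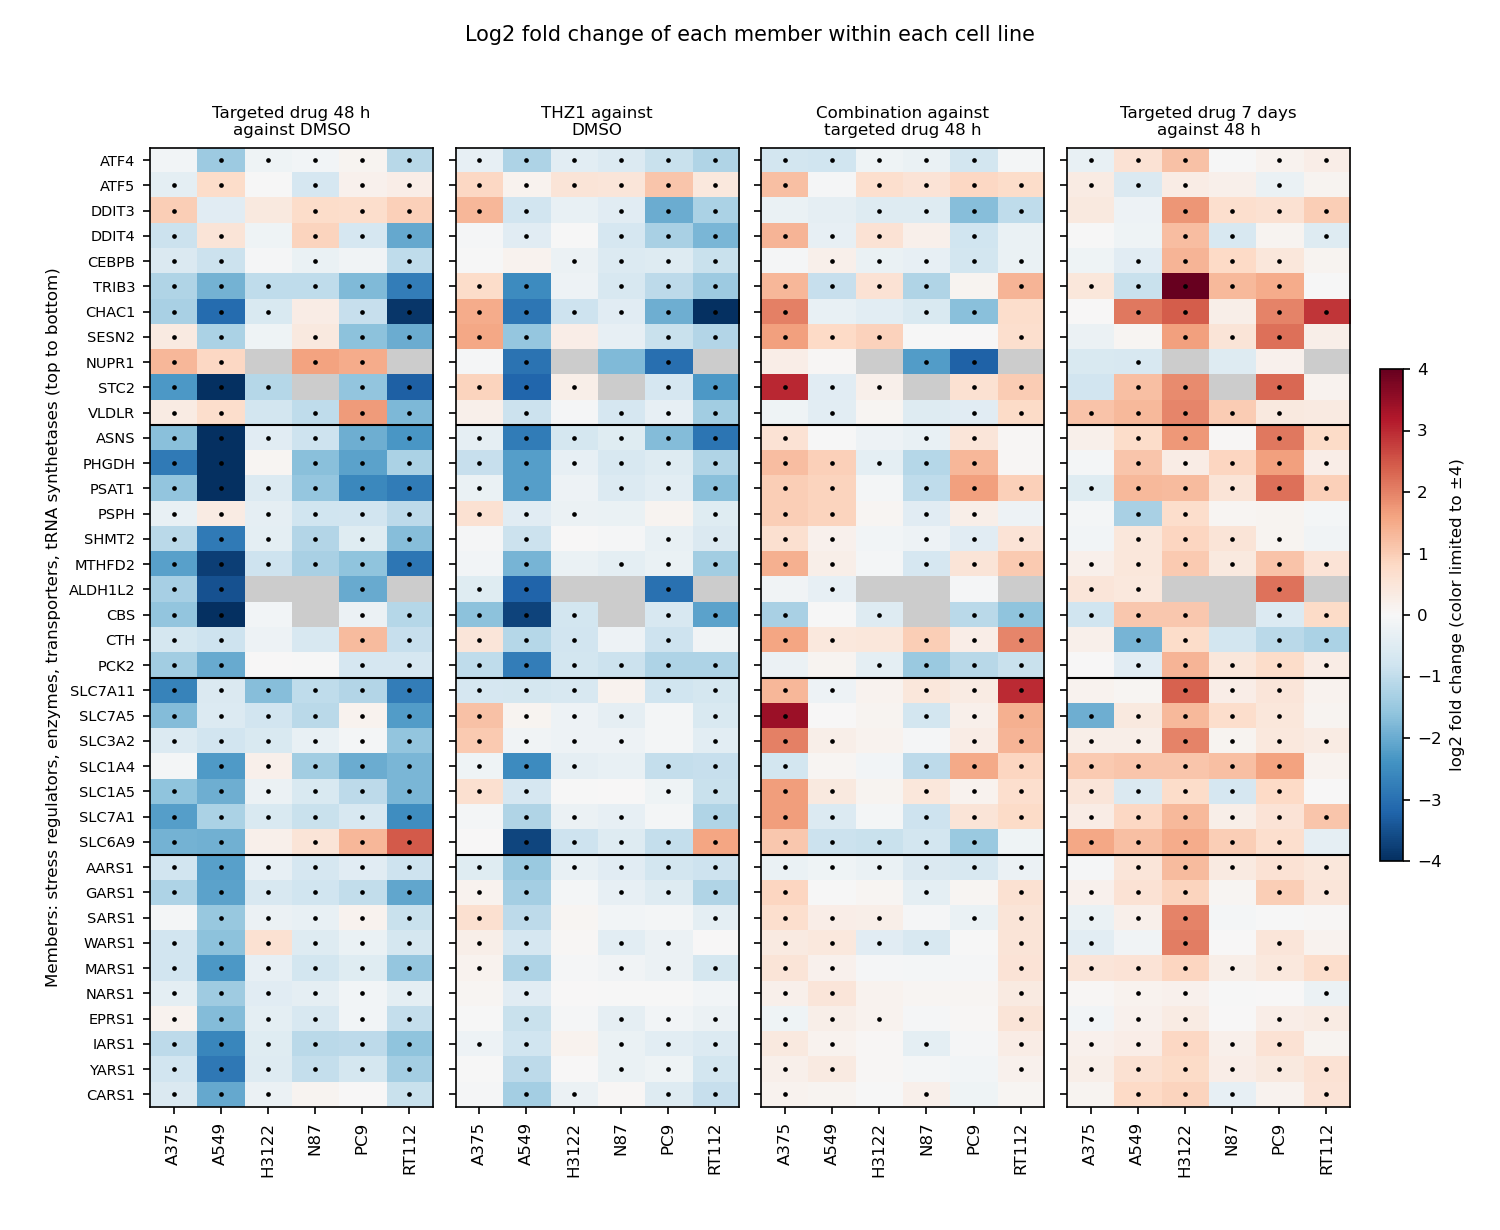
Log2 fold change of each of the 38 members in each line for 4 comparisons, with blue for lower, red for higher, grey for not tested and a dot for an edgeR adjusted p under 0.05. The panels for the drug and for THZ1 share the DMSO libraries, and all panels but the THZ1 one share the 48 h drug libraries. Falls fill the panel of the drug at 48 h against DMSO, and H3122 is red for all 36 tested members in the panel of 7 days against 48 h.

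The next question was what THZ1 added to the targeted drug. Across lines 1 of 34 members was called, ATF5, with 0.6 ± 0.18 (adjusted p = 0.0392), where 3.7% of all genes rose and 4.34% fell. This call was lost when any line but A549 was left out, with adjusted p between 0.0689 without N87 and 0.201 without A375 and estimates between 0.5 and 0.6. The median over the 34 was 0.13, beside 0.00 over all genes. ATF4 had -0.49 ± 0.21 (adjusted p = 0.153), DDIT3 -0.77 ± 0.35 (0.171), CHAC1 -0.14 ± 0.62 (0.917) and ASNS 0.06 ± 0.41 (0.945). The 48 h drug libraries are the same as in the first comparison. ATF4, DDIT3 and AARS1 had estimates below 0 in all 6 lines, and CTH, SLC1A5 and NARS1 above 0 in all 6, of which AARS1 alone was called in every line.

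Lines differed in direction here. In A375, 27 of 38 members were higher in the combination than under vemurafenib (35.1% of all genes) and 5 were lower (33.4%). In RT112, 23 of 36 were higher (32.8%) and 5 lower (31.4%). In N87, 5 of 35 were higher (27%) and 21 lower (28.8%). The others lay between these, with 17 higher and 10 lower of 38 in A549 (20.3% and 20.6% of all genes), 14 and 13 of 38 in PC9 (33.4% and 34.9%), and 7 and 9 of 36 in H3122 (15.3% and 14.3%).

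In A375 the largest rises were those of SLC7A5, STC2 and SLC3A2. SLC7A5 had 2979, 3185 and 2915 CPM in the combination, against 257, 256 and 249.9 CPM under vemurafenib, and rose by 3.41 ± 0.05. These combination libraries also lay above the DMSO libraries, which had 860.3, 836 and 835 CPM, a pair of arms that was not tested. STC2 rose by 3.03 ± 0.20 and SLC3A2 by 2.03 ± 0.08 in A375. In RT112, SLC7A11 had 78.2, 82.7 and 80.0 CPM in the combination, against 10.2, 8.76 and 12.5 CPM under BGJ398, a rise of 2.98 ± 0.13, and CTH rose by 1.96 ± 0.19 while CBS fell by 1.6 ± 0.15. In N87, TRIB3 had 5.94, 6.14 and 4.93 CPM in the combination, against 15.4, 11.3 and 11.9 CPM under lapatinib, and fell by 1.21 ± 0.15. PCK2 fell by 1.5 in N87, and NUPR1 by 2.22 in N87 and 3.25 in PC9. In PC9, DDIT3 fell by 1.7 and CHAC1 by 1.68, while PSAT1 rose by 1.64 and PHGDH by 1.31. In A549, PHGDH rose by 0.96 and PSPH by 0.88, and TRIB3 fell by 0.92. In H3122, SESN2 rose by 0.93 and ATF5 by 0.68, and SLC6A9 fell by 0.88.

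The interaction asked whether the effect of THZ1 with the targeted drug present differed from its effect alone. These 2 effects share no library, but their difference uses the DMSO and 48 h drug libraries of the first comparison. A fall under the targeted drug there therefore raises the interaction estimate. Across lines 0 of 34 members were called by edgeR and 0 by DESeq2, with 10 at an unadjusted p under 0.05, and 0% of all genes were called. The estimate was above 0 for 32 of 34 members, with a median of 0.65 beside 0.01 over all genes. ASNS had 1.73 ± 0.59, CHAC1 1.49 ± 0.89, ATF4 0.34 ± 0.30 and DDIT3 -0.3 ± 0.49, each with an adjusted p near 1.

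Within A549 and RT112 the interaction was called for most members. It was above 0 for 33 of 38 in A549 (15.3% of all genes) and for 33 of 36 in RT112 (24.7%), with 0 and 1 called below 0 (14.8% and 22.5%). In A549, ASNS had 21.2, 19.8 and 21.2 CPM in the combination, against 20.7, 19 and 20.1 CPM under trametinib, and these groups overlap. THZ1 alone gave 48.4, 49.8 and 49.8 CPM, against 353, 328 and 336 CPM in DMSO, and these are far apart. The ASNS interaction in A549 was 2.79 ± 0.08. In RT112, CHAC1 had 4.14, 5.62 and 4.29 CPM in the combination, against 2.78, 2.88 and 3.32 CPM under BGJ398, and THZ1 alone gave 1.48, 2.04 and 1.67 CPM, against 15.5, 47.2 and 57.6 CPM in DMSO. Its interaction was 5.28 ± 0.67, and 5.69 without the libraries numbered 1. Counts above and below 0 were 24 and 4 of 38 in A375 (26.7% and 23.8% of all genes), 22 and 5 of 38 in PC9 (22.8% and 19.7%), 7 and 0 of 36 in H3122 (4.05% and 3.57%), and 5 and 8 of 35 in N87 (11.5% and 15.5%). CTH was called above 0 in all 6 lines, by between 1.1 in A375 and 2.1 in RT112. Its N87 call (adjusted p = 0.0448) was lost without the filter on low counts (1.18) and when any of 9 single libraries was left out, with estimates between 0.95 without DMSO library 2 and 1.31 without lapatinib library 2. The 10 synthetases were all called above 0 in A549 and in RT112, with medians of 1.3 and 0.87, and 0 were called in H3122 by edgeR.

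**Figure D3:**
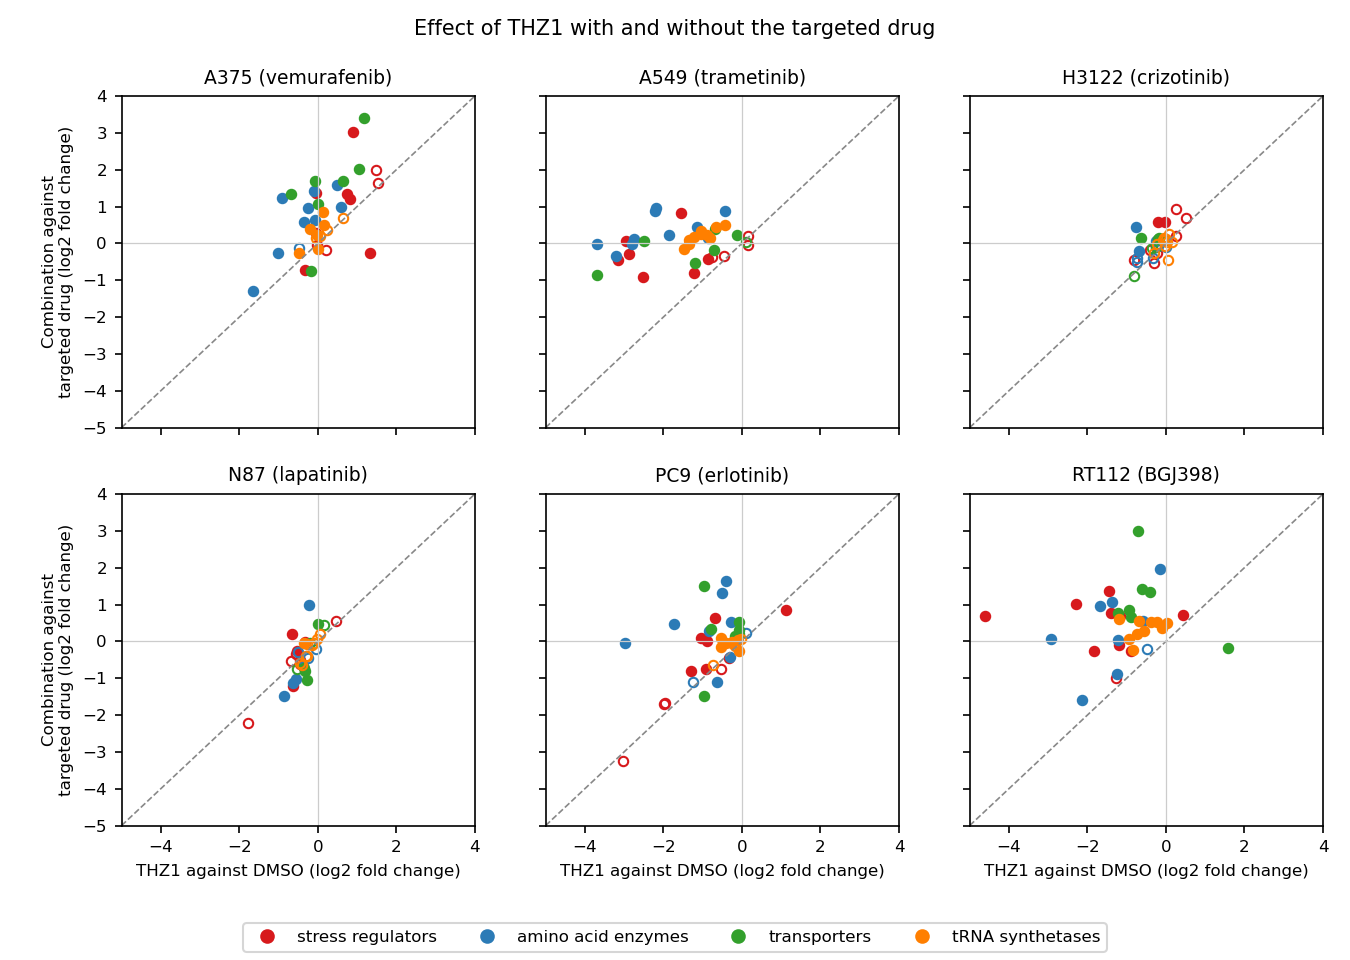
Effect of THZ1 on top of the targeted drug (vertical, log2 fold change) against its effect alone (horizontal) for each tested member, 1 panel per line, colored by role, with filled points where edgeR called the interaction in that line and a dashed line of equality. Points in A549 and RT112 lie above the line for nearly every member, and those in N87 lie on both sides of it.

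The last comparison set 7 days of the targeted drug against 48 h. Members tended upward, most of all in H3122. Across lines 0 of 34 were called by edgeR and 0 by DESeq2, where 0% of all genes were called. Of the 34 members, 15 had an unadjusted p under 0.05, 31 were above 0, and the median was 0.56 beside 0.01 over all genes. ATF4 had 0.34 ± 0.21 (adjusted p = 0.825), ASNS 1.09 ± 0.42 (0.705), CHAC1 1.83 ± 0.63 (0.617) and DDIT3 0.82 ± 0.35 (0.732). This comparison shares its 48 h drug libraries with the first, so a low 48 h value lowers the one estimate and raises the other.

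In H3122 all 36 tested members were higher after 7 days of crizotinib than after 48 h, against 30.5% of all genes, and the count was 36 without the 7-day library numbered 1. TRIB3 had 451, 553 and 427 CPM after 7 days, against 30.7, 29.5 and 29.7 CPM after 48 h, and rose by 4.04 ± 0.09. CHAC1 had 27.2, 54 and 60.7 CPM after 7 days, against 8.04, 9.76 and 9.52 CPM after 48 h, with the library numbered 1 the lowest, and rose by 2.42 ± 0.21, or by 2.71 without that library. ATF4 had 896, 948 and 1059 CPM after 7 days, against 449.6, 431 and 445 CPM after 48 h. TRIB3 and CHAC1 were named by a rule that requires groups that do not overlap. For ATF4 too every 7-day library lay above every 48 h library. The 7-day libraries of TRIB3, CHAC1 and ATF4 also lay above the DMSO libraries of H3122, which had 54, 58.9 and 56.7 CPM of TRIB3, 11.5, 14.4 and 12.8 CPM of CHAC1 and 464, 474 and 455 CPM of ATF4, a pair of arms that was not tested. SLC7A11 had 534, 415 and 391 CPM after 7 days, against 96.5, 84 and 89.2 CPM after 48 h, and rose by 2.36 ± 0.10. WARS1 had 1311, 1051 and 761 CPM after 7 days, against 251, 266 and 268 CPM after 48 h, with the library numbered 1 the highest, and rose by 2.04 ± 0.13, or by 1.84 without that library. Medians over the members of a role in H3122 were 1.7 for regulators, 1.31 for transporters, 1.05 for enzymes and 0.88 for synthetases.

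Higher after 7 days were also 29 of 38 members in PC9 (25.7% of all genes), 25 of 38 in A549 (27.6%), 20 of 35 in N87 (22.3%), 17 of 36 in RT112 (18.5%) and 14 of 38 in A375 (18.6%). Lower were 3 in PC9 (27.2%), 8 in A549 (23.7%), 3 in N87 (20.3%), 3 in RT112 (18.5%), 7 in A375 (21.4%) and 0 in H3122 (33.4%). MTHFD2, SLC3A2, SLC7A1, MARS1 and YARS1 were called higher in all 6 lines. In PC9, ASNS had 52.6, 54 and 51.9 CPM after 7 days of erlotinib, against 11.8, 11.4 and 10.7 CPM after 48 h, and PSAT1 had 136, 131 and 133 CPM, against 25.5, 27.5 and 26.2 CPM. They rose by 2.1 ± 0.07 and 2.21 ± 0.05, and the 7-day ASNS libraries overlap those of DMSO (46, 52.6 and 47.1 CPM), a pair of arms that was not tested. STC2 and SESN2 rose in PC9 by 2.29 and 2.21. In RT112, CHAC1 had 18, 24.4 and 22.5 CPM after 7 days, against 2.78, 2.88 and 3.32 CPM after 48 h, and rose by 2.86 ± 0.40, or by 2.93 without the libraries numbered 1, while CTH fell by 1.27. CTH also fell in A549 (by 1.84), where CHAC1 rose by 2.12 and VLDLR by 1.31. A375 had SLC7A5 at 71.1, 70.6 and 67.1 CPM after 7 days of vemurafenib, against 257, 256 and 249.9 CPM after 48 h, a further fall of 1.95 ± 0.05, while SLC6A9 rose by 1.54. In N87, TRIB3, SLC1A4 and VLDLR rose by 1.31, 1.2 and 1.01.

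**Figure D4:**
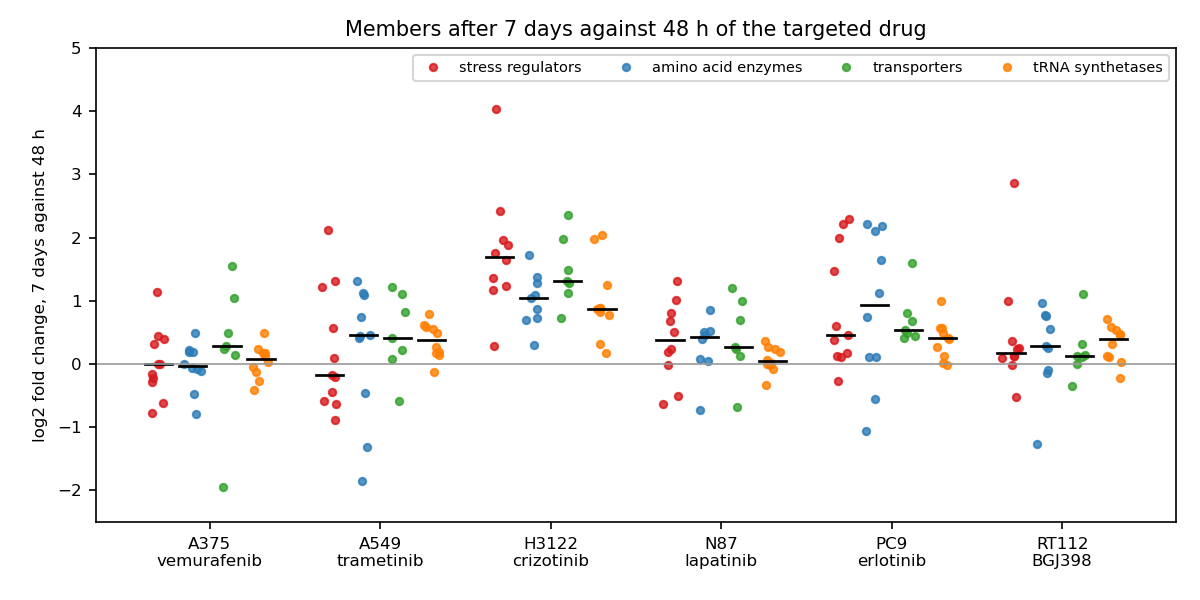
Log2 fold change of 7 days against 48 h of the targeted drug for each tested member (points), by line and role, with a bar at the median of each role. All H3122 points lie above 0, between 0.17 and 4.04, and A375 medians lie near 0.

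Effects of nearly every member differed between lines by the test of the difference itself. An F test over 90 libraries called 37 of 38 members for the targeted drug (74.8% of 19655 genes), 38 for THZ1 (61.4%), 37 for the combination against the targeted drug (73.8%) and 38 for 7 days against 48 h (71.6%). The test takes the 3 libraries of a group as replicates, so its p-values too reflect spread that may be technical. CHAC1 under THZ1 had the widest range, 6.07 on the log2 scale between -4.6 in RT112 and 1.47 in A375 (F test adjusted p = 4.43e-20). SLC6A9 followed, with a range of 5.26 under THZ1, between -3.68 in A549 and 1.59 in RT112. Under the targeted drug PHGDH and PSAT1 had ranges of 5.01 and 4.98, both with A549 lowest and H3122 highest. TRIB3 had a range of 4.92 for 7 days against 48 h, between -0.88 in A549 and 4.04 in H3122.

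Other genes of the pathway, listed by role, were followed in the fit across lines. Under the targeted drug 18.6% of all genes tested there rose and 18.5% fell. Of 7 genes for eIF2alpha kinases and phosphatase subunits, 2 rose and 1 fell under the targeted drug, with a median of 0.14. Of 16 other ATF4 pathway genes 15 were tested, of which 1 rose and 7 fell (median -0.66). Of the 10 cytosolic tRNA synthetases that are not members 7 fell and 0 rose (median -0.52), and of 17 mitochondrial synthetases 9 fell and 0 rose (median -0.37). Under THZ1 alone 0 genes of these 4 lists were called by edgeR, with 2, 5, 4 and 2 genes at an unadjusted p under 0.05 and 0, 2, 0 and 0 called by DESeq2 in the same order. Their medians under THZ1 were -0.14, -0.25, -0.03 and 0.03, against -0.44 for the member synthetases. After 7 days against 48 h their medians were -0.02, 0.42, 0.02 and -0.06, with 0 called by either tool and 0, 3, 1 and 1 at an unadjusted p under 0.05. The member synthetases had 0.46 there, and 0 of them were called.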

How the data were processed

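Gene-level RNA-seq values for 90 libraries were deposited by the authors as 1 table of expected counts, that is read counts estimated by RSEM 1.2.12 after alignment with Bowtie2 2.2.1 to hg19, per the submitters' processing notes. Gene annotation and use of strand are not given in the sources used here. Libraries were RNeasy micro kit RNA with NEBNext Ultra preparation, per the labels' protocols. The expected counts were rounded to whole numbers, and CPM was scaled to the library total, with no length correction.

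The 38 members and the other gene lists were chosen with earlier results of these data known. For the fit across lines, the 3 libraries of each line and arm were summed and fitted with arm and line as terms in edgeR 4.0.16 (quasi-likelihood, TMM scaling, R 4.3.3), over 11875 genes with at least 1 CPM in 3 libraries of every line. Within a line, all 15 libraries were fitted together with edgeR's own filter on low counts. Differences between lines were tested with a 5-degree-of-freedom F test over 90 libraries and 19655 genes. P-values were adjusted by Benjamini-Hochberg over all genes tested, with a threshold of 0.05. Across lines every called member was named, with ATF4, DDIT3, CHAC1 and ASNS in every comparison. Within a line up to 3 genes were named, those with the largest called change. Outside the interaction they had to have groups that do not overlap and a mean that reaches 1 CPM in a group. Separate groups are therefore no further result for these genes. Other members were described for their role and chosen after their values were seen. Alternatives were DESeq2 1.42.0, RLE size factors, no filter, only the arms compared, leaving out a line or library, and a replicate block. The fits were tested on simulated data. Deviations of same-numbered libraries from their group means had correlations between -0.12 and 0.15 over the 8 line comparisons sharing 3 numbers, and in 0 of the 8 was every correlation over 0.1, so replicate numbers were not used to pair libraries. Of 16 line comparisons sharing 2 numbers, 3 had both correlations over 0.1, all in RT112 (between 0.11 and 0.48). RT112 is not among the 8, so its main fit leaves out a possible pairing of libraries. The replicate block takes it in. One vemurafenib library of A375 carried a tissue label of lung, but its nearest library was of its own group.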

Additional observations from a re-analysis of the deposited data

Results flagged for a closer look

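Under the targeted drug A549 lay far below the other 5 lines for 3 synthetases. The A549 effects (log2 fold change) were -2.18 for AARS1, -1.41 for NARS1 and -2.87 for YARS1. Chance alone flags about 1 in 20 such sets of 6 values. The rule was run on every member named across lines in each comparison but the interaction, so some flags are expected by chance.

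Line effects differed by an F test of the difference for 37 of 38 members under the targeted drug, 38 under THZ1, 37 for the combination against the targeted drug and 38 for 7 days against 48 h. For the 5 members with the widest range in each comparison the ranges of the line effects (log2) follow. Under the targeted drug they were 5.01 for PHGDH, 4.98 for PSAT1, 4.38 for SLC6A9 (A549 lowest, RT112 highest), 4.18 for CHAC1 (RT112 lowest, N87 highest) and 4.09 for CBS (A549 lowest, H3122 highest). Under THZ1 they were 6.07 for CHAC1, 5.26 for SLC6A9, 4.07 for STC2 (A549 lowest, A375 highest), 3.31 for DDIT3 (PC9 lowest, A375 highest) and 3.25 for TRIB3 (A549 lowest, A375 highest). For the combination against the targeted drug they were 4.13 for SLC7A5 (N87 lowest), 3.68 for CHAC1 (PC9 lowest), 3.53 for NUPR1 (PC9 lowest) and 3.48 for STC2 (A549 lowest), with A375 the highest line for each, and 3.17 for SLC7A11 (A549 lowest, RT112 highest). For 7 days against 48 h they were 4.92 for TRIB3, 3.23 for SLC7A5 (A375 lowest, H3122 highest), 3.07 for STC2 (A375 lowest, PC9 highest), 2.85 for CHAC1 (A375 lowest, RT112 highest) and 2.69 for PSAT1 (A375 lowest, PC9 highest). Adjusted p over these 20 genes and comparisons lay between 4.68e-46 for SLC7A5 and 1.53e-07 for CHAC1, both for the combination against the targeted drug (edgeR). Lines in which a member was below the filter were not part of its range but were part of its F test.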

How the results depend on the processing

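The 20 members called across lines for the targeted drug against DMSO became between 16 and 22 when a line, or the libraries numbered 1 of RT112 and of H3122 at 7 days, were left out, and between 17 and 21 under the other settings. For THZ1 against DMSO the count of 0 became 4 with DESeq2 (4 lower) and 7 with only the arms compared (1 higher, 6 lower), and stayed 0 under every leave-out. There ATF4 passed with -0.81 (adjusted p = 0.0192) in DESeq2 and -0.77 (0.0159) with only the arms compared, and ASNS with -1.66 (0.00709) and -1.49 (0.0486). For the combination against the targeted drug the count of 1 became 0 without the filter and 0 with only the arms compared, and lay between 0 and 2 over the leave-outs. There the estimate changed sign for CHAC1 without N87 (0.02) or PC9 (0.15), with leave-outs between -0.53 and 0.15, and for ASNS without A375 (-0.04) or PC9 (-0.0043), between -0.04 and 0.15. In the interaction it changed sign for DDIT3 without A375 (0.05), between -0.48 and 0.05. None of these passed a test, and the cause was not tested. For 7 days against 48 h and for the interaction, leave-outs gave 0 throughout. Within lines every count of members called stayed within 1.5 times its value, for example 33 to 35 in A375 and 36 to 36 in RT112 for the targeted drug, and 34 to 36 in H3122 for 7 days. A replicate block gave 34 calls in A375 for the targeted drug and 32 in RT112 for the interaction, and within lines it ended 1 named call, SLC1A4 in the N87 interaction (-0.72, adjusted p = 0.0813), which was also lost with DESeq2 (-0.76), without the filter (-0.79) and when any of 7 single libraries was left out. With RLE or DESeq2 scaling the median of all genes was at most 0.07 in any comparison. Like TMM, these scalings take most genes as unchanged, so a median near 0 follows from the method. It cannot show whether total RNA per cell changed, under THZ1 or any other drug. With 6 sums per arm the fit across lines has little power for small changes, and doses, drugs and tissues change together between lines.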
